A study of Saccharomyces cerevisiae with 6 samples.

Results

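Loss of Bud27 and inhibition of the kinase complex TORC1 were set against each other in budding yeast (Saccharomyces cerevisiae), with transcript levels from 2 samples of a bud27 deletion strain and 2 samples of WT incubated overnight in rapamycin at 50 ng/ml. The strain background of all samples was labelled BY4741, a haploid laboratory strain, and 2 samples of untreated WT give the starting level beside each difference. Cells were grown in YPD, a rich glucose medium, at 30 °C and collected near an optical density of 0.8. The table held 7247 rows, of which the 5475 gene rows enter here and the 925 rows of cryptic unstable transcripts (CUTs) and 847 rows of stable unannotated transcripts (SUTs) do not. A filter on low counts left 5279 gene rows for testing, and 281 of these join the reads of neighbouring or overlapping features. Libraries were made from total RNA with a kit that reads only the 3′ ends of polyadenylated RNA, so a level counts transcripts and does not grow with their length. Levels are given as scaled CPM, which are counts per library total (CPM) rescaled by TMM factors. A difference is the deletion minus rapamycin-treated WT of log2(scaled CPM + 1), and the added 1 makes it too small for rare transcripts. It was called at a limma adjusted p below 0.05 over all rows tested. Whether the 2 samples of each group grew as separate cultures is not in the labels, and p-values then reflect a spread that may be purely technical.

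Bud27 is the yeast homologue of human URI, a prefoldin-like protein that is known to help assemble the nuclear RNA polymerases in the cytoplasm and has been linked to TOR signalling and to translation. TORC1 is the rapamycin-sensitive kinase complex that promotes ribosome synthesis when nutrients are plentiful. It also holds back the GATA factors Gln3 and Gat1, which switch on genes for poor nitrogen sources, and the stress activators Msn2 and Msn4. Gcn4 is a separate activator of amino acid synthesis genes whose translation increases when charged tRNA runs short.

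The deletion label was checked on BUD27 (chromosome VI, plus strand, bases 90986 to 93376, in R64 coordinates as for all genes below), which had 6 and 9 reads in the deletion libraries. Its level was 1.66 and 1.75 scaled CPM in the deletion, 9.49 and 9.36 in rapamycin-treated WT and 12.99 and 16.8 in untreated WT, a difference of -1.94 (SE 0.18, limma adjusted p = 9.71e-05). FRS2, the converging neighbour that encodes a subunit of phenylalanyl-tRNA synthetase, was also lower, with 34.4 and 22.98 scaled CPM in the deletion, 126 and 117 in rapamycin-treated WT and 165 and 103 in untreated WT, a difference of -2.07 (SE 0.25, limma adjusted p = 3.32e-04). The tryptophan gene TRP1, which is intact in BY4741, had 1.39 and 1.56 scaled CPM in the deletion, 38.4 and 32.5 in rapamycin-treated WT and 35.8 and 42.9 in untreated WT. That rested on 5 and 8 reads in the deletion, 24.2-fold lower than in rapamycin-treated WT with an exact 95% counting interval of 14.1 to 45.5. The deletion samples therefore differed from the others at FRS2 and TRP1 as well as at BUD27, and effects of these cannot be told apart here. LEU2, removed in BY4741, had 5.27 and 4.29 scaled CPM in the deletion, 0.0291 and 0.040 in rapamycin-treated WT and 0.0485 and 0.958 in untreated WT. That rested on 19 and 22 reads in the deletion, 1 and 1 in rapamycin-treated WT and 1 and 14 in untreated WT. The difference from rapamycin was 2.48 (SE 0.31, limma adjusted p = 3.64e-04). The LEU2 reads are a further difference of the deletion samples. Another marker gene of laboratory strains, MET17, had 2 and 3 reads in the deletion, 0 and 0 in rapamycin-treated WT and 31 and 80 in untreated WT. Rapamycin-treated and untreated WT thus also differed at a marker, by -2.01 (SE 0.40, limma adjusted p = 0.00437). The marker URA3 had 10 and 14 reads in the deletion, 66 and 42 in rapamycin-treated WT and 70 and 42 in untreated WT. The source of these marker reads was not tested. Of the a-specific genes 0 were higher and 4 lower of 6 tested, where 25.6% of all rows tested were called higher and 29.4% lower. The a-factor gene MFA1 had 176 and 297 scaled CPM in the deletion, 1942 and 1929 in rapamycin-treated WT and 572 and 682 in untreated WT. The alpha-factor gene MF(ALPHA)1 had 0.277 and 0.195 scaled CPM in the deletion, 0 and 0.040 in rapamycin-treated WT and 0 and 0 in untreated WT, at or near 0 in every library. The 2 alpha-specific genes tested, STE3 and SAG1, were both lower in the deletion. STE3 had 0.555 and 0.195 scaled CPM in the deletion, 6.44 and 7.32 in rapamycin-treated WT and 4.31 and 2.88 in untreated WT. SAG1 had 8.04 and 7.60, 23.5 and 21.3, and 10.2 and 11.8 in that order. They differed by -2.53 (SE 0.24, limma adjusted p = 9.46e-05) and -1.41 (SE 0.16, limma adjusted p = 2.34e-04). No chromosome stood apart, with medians per chromosome between -0.21 on XI and 0.09 on XIV. Depth differed between the groups, with 3212848 and 5088194 reads in the deletion libraries, 28774941 and 20841682 in the rapamycin libraries and 26899486 and 18153459 in untreated WT. A count of 0 allows 3 reads, which is 0.934 and 0.590 CPM in the deletion libraries and at most 0.165 CPM in the other 4, and these limits cover counting error only.

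Stretches upstream of genes that mark the main contrasts are shown here, from 350 to 51 bases before the start codon, read from the R64 reference on the strand of the gene. ARG1 (argininosuccinate synthetase) and LEU1 (isopropylmalate isomerase) stand for amino acid synthesis, MEP2 (the high-affinity ammonium permease) for nitrogen source genes, HSP26 (a small heat shock protein) for stress, and UTP14 (a factor of the small subunit processome) for ribosome assembly. Capitals mark, on either strand, the letters TGACTC bound by Gcn4, GATAAG bound by GATA factors, AGGGG bound by Msn2 and Msn4, and GATGAG, the core of the PAC motif of ribosome assembly genes. Matches that share letters, as a pair in MEP2 does, were each counted. The windows lie at chrXV:218861-219160 (plus strand), chrVII:478703-479002 (minus strand), chrXIV:357103-357402 (plus strand), chrII:381680-381979 (plus strand) and chrXIII:82740-83039 (plus strand).
ARG1: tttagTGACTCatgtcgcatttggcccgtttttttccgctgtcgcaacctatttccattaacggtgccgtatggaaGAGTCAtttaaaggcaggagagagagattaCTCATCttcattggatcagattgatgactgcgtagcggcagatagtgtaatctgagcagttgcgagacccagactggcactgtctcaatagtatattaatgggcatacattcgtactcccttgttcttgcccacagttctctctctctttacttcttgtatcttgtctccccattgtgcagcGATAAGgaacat
LEU1: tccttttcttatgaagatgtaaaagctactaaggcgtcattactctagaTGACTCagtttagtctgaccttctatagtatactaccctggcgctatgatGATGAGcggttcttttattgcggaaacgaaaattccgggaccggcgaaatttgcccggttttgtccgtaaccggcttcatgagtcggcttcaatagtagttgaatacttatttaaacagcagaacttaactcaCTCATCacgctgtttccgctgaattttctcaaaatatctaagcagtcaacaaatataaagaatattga
MEP2: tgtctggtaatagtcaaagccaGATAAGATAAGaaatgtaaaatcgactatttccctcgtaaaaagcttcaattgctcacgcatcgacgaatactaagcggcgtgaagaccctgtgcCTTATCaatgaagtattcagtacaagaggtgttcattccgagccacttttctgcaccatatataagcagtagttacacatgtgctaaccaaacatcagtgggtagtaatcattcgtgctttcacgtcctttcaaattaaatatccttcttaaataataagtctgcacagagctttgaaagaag
HSP26: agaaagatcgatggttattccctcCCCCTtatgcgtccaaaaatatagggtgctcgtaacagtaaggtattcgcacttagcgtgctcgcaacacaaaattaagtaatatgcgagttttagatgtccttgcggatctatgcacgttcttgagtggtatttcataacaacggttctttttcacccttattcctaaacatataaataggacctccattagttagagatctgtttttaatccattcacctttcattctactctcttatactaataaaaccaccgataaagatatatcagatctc
UTP14: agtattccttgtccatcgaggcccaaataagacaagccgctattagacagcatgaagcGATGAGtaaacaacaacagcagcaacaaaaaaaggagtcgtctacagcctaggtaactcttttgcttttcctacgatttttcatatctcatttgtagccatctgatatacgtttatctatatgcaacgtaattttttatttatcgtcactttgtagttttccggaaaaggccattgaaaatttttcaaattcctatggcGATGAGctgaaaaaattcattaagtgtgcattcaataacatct

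The ARG1 window held the Gcn4 letters 345 and 274 bases before the start codon, and the LEU1 window held them once, 301 bases before it. Other motifs stood there too, with GATAAG at 62 and GATGAG at 244 bases in ARG1, and GATGAG at 251 and 118 bases in LEU1. MEP2 had GATAAG 3 times, HSP26 had AGGGG once, and UTP14 had GATGAG 2 times. The UTP14 match 292 bases before the start codon lies inside the neighbouring gene GIM5 (bases 82275 to 82849). Windows were cut at fixed distances and can hold coding sequence of a neighbour. Over all 6001 protein-coding genes of R64, 8.07% of windows held TGACTC, 14.3% GATAAG, 22.9% AGGGG and 19.8% GATGAG. Among the 421 windows of rows called higher in the deletion by a log2 difference of at least 1, the Gcn4 letters stood in 18.1% and the PAC core in 30.2%, against 8.50% and 20.1% of the 4870 windows of rows tested. GATAAG and AGGGG stood in 10.7% and 15.4% of those windows, against 14.4% and 23.2% of rows tested. Among the 736 windows of rows lower by at least 1 the shares ran the other way, with 6.52% for TGACTC, 18.6% for GATAAG, 38.9% for AGGGG and 14.8% for GATGAG. The letters are counted as a description, with no test of these shares and no reading on which factor was bound.

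**Figure D1:**
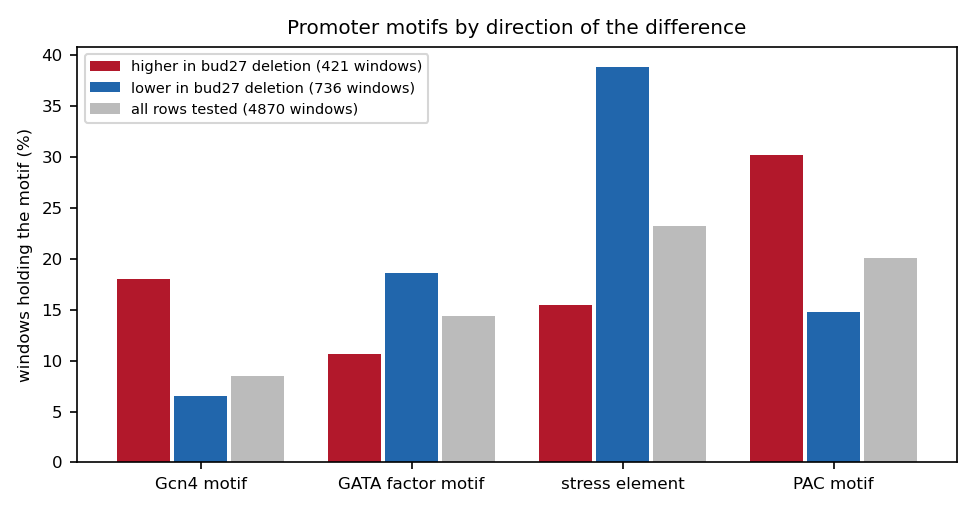
Share of promoter windows of 300 bases (%, vertical axis) that hold each of 4 motifs (horizontal axis), for rows higher in the bud27 deletion than in rapamycin-treated WT by a log2 difference of at least 1 (red, 421 windows), rows lower by at least 1 (blue, 736) and all rows tested (grey, 4870). Windows with the Gcn4 and PAC motifs make up a larger share of the higher rows, and windows with the GATA factor motif and the stress element a larger share of the lower rows.

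Of the 5279 rows tested, 55.1% were called, 25.6% (1354 rows) higher in the deletion and 29.4% (1554 rows) lower. A difference of at least 1 was called for 476 rows (9.02%) that were higher and 828 rows (15.7%) that were lower. The median over all rows was -0.01. On the deposited CPM scale, without the TMM factors, 938 rows were called higher and 1829 lower, and the median of all rows was -0.17, so that every difference lies lower there by about the same shift. These counts, the shares and the median are the background for every group below. Against untreated WT, 21.7% of rows were called higher and 25.5% lower in the deletion, and 24.4% higher and 21.5% lower in rapamycin-treated WT. Without the TMM factors 2245 rows were called higher and 704 lower in the deletion, and 2886 higher and 432 lower in rapamycin-treated WT. Medians of all rows against untreated WT were then 0.38 and 0.60, while with the factors they were -0.02 and 0.05. Positions relative to untreated WT below use the TMM factors, and small ones can change with the scale. RNA of whole cultures was measured, so a lower level in all cells and a smaller share of cells with the transcript cannot be told apart.

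**Figure D2:**
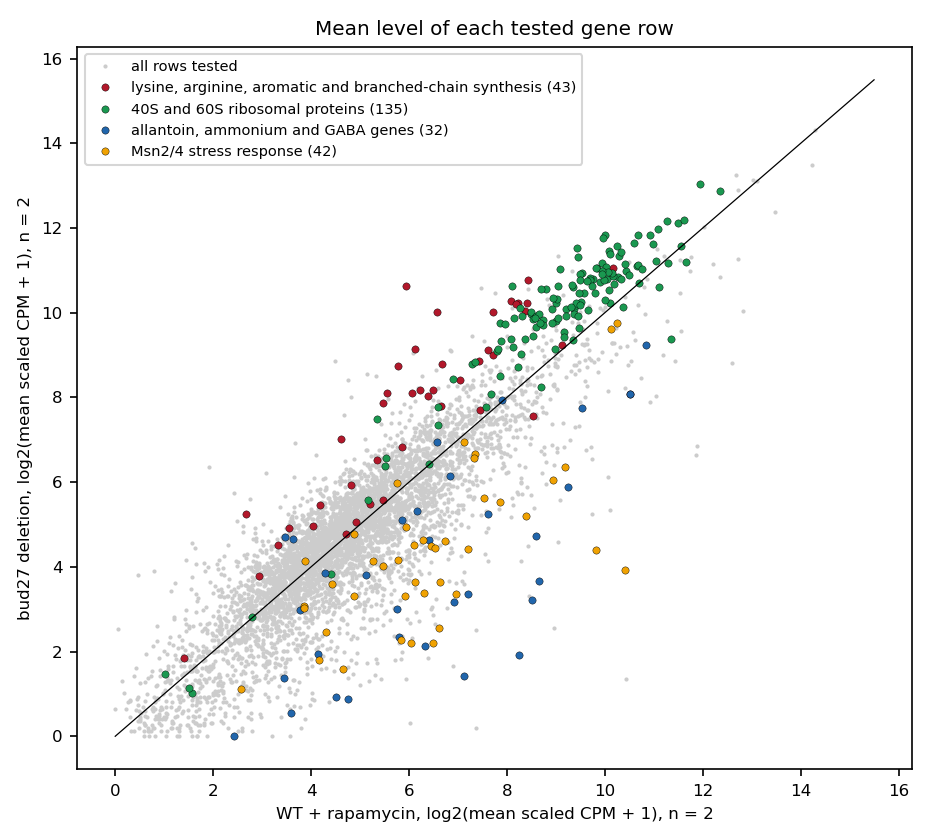
Mean level of each tested gene row in the bud27 deletion (vertical axis) and in rapamycin-treated WT (horizontal axis), both as log2(mean scaled CPM + 1) over 2 samples, with equal levels on the line. Lysine, arginine, aromatic and branched-chain synthesis genes (red) and ribosomal protein genes (green) lie mostly above the line, and nitrogen source genes (blue) and Msn2/4 stress genes (yellow) mostly below it.

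LEU1, of leucine synthesis, led the 12 largest rises at 4.7, and BAT1, the mitochondrial branched-chain aminotransferase, stood at 3.44. Lysine synthesis gave LYS1 at 3.03 and LYS9 at 2.94. The phosphate genes PHO84, a high-affinity transporter, and SPL2, a regulator of phosphate transport, differed by 4.38 and 4.43. Also among the 12 largest rises were CYC1 (iso-1-cytochrome c) at 3.39, the vitamin B6 gene SNO1 at 3.34, the mitochondrial aldehyde dehydrogenase ALD5 at 3.23, BNA1 of NAD synthesis from tryptophan at 3.18 and SAM4 of S-adenosylmethionine recycling at 2.97. The standard errors of the differences named ran from 0.12 for LYS1 and BNA1 to 0.23 for SPL2.

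Among the 12 largest falls the wall mannoprotein genes TIR1 at -9.07 and TIP1 at -5.28 stood with ANB1, the low-oxygen form of translation factor eIF5A, at -7.13. Stress genes gave HSP26 at -6.5 and DDR2 at -5.45. Nitrogen genes gave GDH3, an NADP-dependent glutamate dehydrogenase, at -6.36, the GABA permease UGA4 at -5.7, MEP2 at -5.29 and UGA2, a succinate semialdehyde dehydrogenase, at -5.01. The hexose transporter HXT4 stood at -5.24, DPI8 at -5.03 and NCA3 at -4.82. Standard errors were between 0.14 for TIR1 and 0.29 for DDR2. Joined rows, rows without a standard gene name and rows in which the deletion and rapamycin libraries overlapped could not enter either set of 12.

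**Figure D3:**
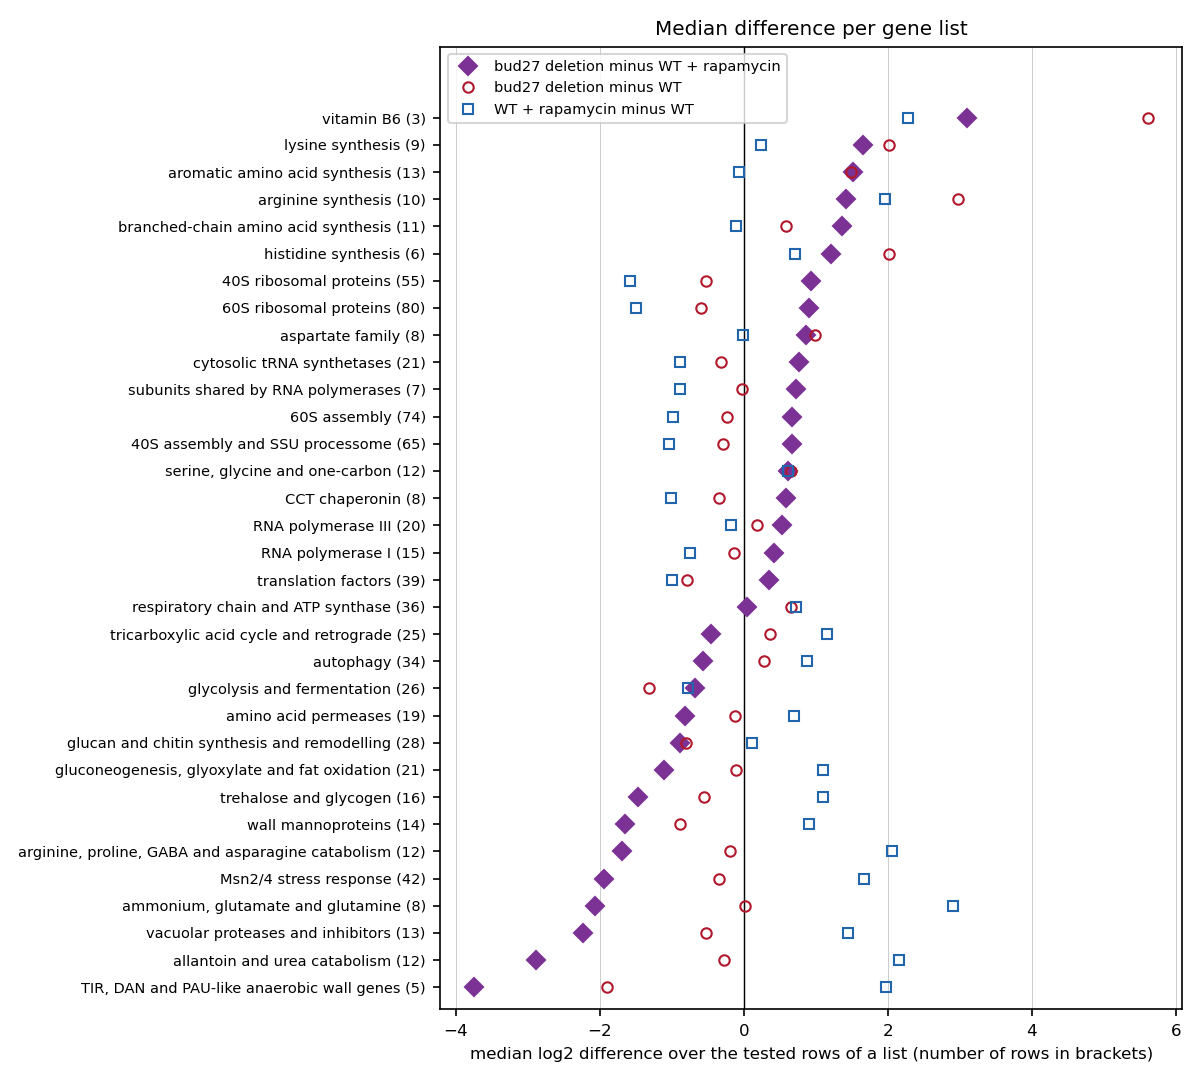
Median log2 difference (horizontal axis) over the tested rows of each gene list (vertical axis, number of rows in brackets), for the bud27 deletion minus rapamycin-treated WT (filled diamonds), the deletion minus untreated WT (open circles) and rapamycin-treated minus untreated WT (open squares). Circles and squares share the untreated WT libraries. Diamonds run from -3.75 for the anaerobic wall genes to 3.10 for vitamin B6.

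Most rows of the arginine, lysine, aromatic, histidine and branched-chain synthesis lists were higher in the deletion than after rapamycin. For arginine synthesis 8 were higher and 0 lower of 10 tested, with a median of 1.42, for lysine synthesis 8 were higher and 0 lower of 9 tested, with a median of 1.65, and for aromatic amino acid synthesis 11 were higher and 1 lower of 13 tested, with a median of 1.51. Histidine synthesis had 4 higher and 0 lower of 6, with a median of 1.21. Branched-chain synthesis had 6 and 1 of 11, with a median of 1.36. Against untreated WT the medians of these lists in the deletion were 2.97 for arginine, 2.02 for lysine, 1.49 for aromatic, 2.01 for histidine and 0.58 for branched-chain synthesis. In rapamycin-treated WT the medians against untreated WT were 1.97, 0.24, -0.07, 0.70 and -0.11 for the same lists in that order. Both sets share the untreated WT libraries.

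ARG1 (chromosome XV, plus strand, bases 219211 to 220473) had 1927 and 1594 scaled CPM in the deletion, 355 and 336 in rapamycin-treated WT and 20.1 and 14.9 in untreated WT. Its level was thus above untreated WT in all 4 libraries and highest in the deletion, with a difference between deletion and rapamycin of 2.34 (SE 0.17, limma adjusted p = 2.83e-05). ARG4, argininosuccinate lyase, which follows ARG1 in the pathway, had 1193 and 1209 scaled CPM in the deletion, 344 and 332 in rapamycin-treated WT and 52.7 and 46.5 in untreated WT, and ARG7, a mitochondrial ornithine acetyltransferase, had 1145 and 1323 scaled CPM in the deletion, 278 and 261 in rapamycin-treated WT and 89.4 and 77.7 in untreated WT. Their differences were 1.83 (SE 0.13, limma adjusted p = 2.34e-05) and 2.19 (SE 0.15, limma adjusted p = 1.53e-05). All 9 windows of arginine genes that stand in a row of their own held the Gcn4 letters.

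LYS1, saccharopine dehydrogenase of the last step to lysine, showed the same order, with 575 and 559 scaled CPM in the deletion, 67.7 and 68.8 in rapamycin-treated WT and 22.01 and 23.5 in untreated WT. LYS9, of the step before LYS1, had 519 and 332 scaled CPM in the deletion, 58.8 and 48.4 in rapamycin-treated WT and 60.2 and 73.4 in untreated WT, and the homocitrate synthase gene LYS21 had 509 and 372 scaled CPM in the deletion, 105 and 97.3 in rapamycin-treated WT and 82.9 and 73.2 in untreated WT. In LYS9 and LYS21 rapamycin-treated WT was not called against untreated WT, while the deletion libraries stood above both groups. Differences from rapamycin were 3.03 (SE 0.12, limma adjusted p = 1.90e-06) for LYS1, 2.94 (SE 0.22, limma adjusted p = 3.10e-05) for LYS9 and 2.1 (SE 0.17, limma adjusted p = 4.54e-05) for LYS21.

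LEU1 (chromosome VII, minus strand, bases 476313 to 478652) had 1786 and 1409.6 scaled CPM in the deletion, 63.5 and 57.2 in rapamycin-treated WT and 84.3 and 72.1 in untreated WT, so that rapamycin and untreated WT were close and the deletion was far above them (SE 0.16, limma adjusted p = 1.04e-06). The aminotransferases of this pathway moved in opposite directions. BAT1, the mitochondrial enzyme of synthesis, had 973 and 1101 scaled CPM in the deletion, 95.02 and 94.3 in rapamycin-treated WT and 252 and 232 in untreated WT. BAT2, the cytosolic enzyme that also degrades these amino acids, had 282 and 257 scaled CPM in the deletion, 1539 and 1395 in rapamycin-treated WT and 256 and 222 in untreated WT, a difference of -2.44 (SE 0.15, limma adjusted p = 1.10e-05). The Gcn4 letters stood in 9 of 11 windows of this list.

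In the aromatic list ARO3, an enzyme of the first shared step, had 336 and 209 scaled CPM in the deletion, 45.1 and 46.7 in rapamycin-treated WT and 43.9 and 49.6 in untreated WT, and the tryptophan gene TRP4 had 288 and 178 scaled CPM in the deletion, 44.4 and 41.9 in rapamycin-treated WT and 31.6 and 26.8 in untreated WT. ARO9, an aromatic aminotransferase that is also used in breakdown, had 122 and 134 scaled CPM in the deletion, 25.4 and 21.6 in rapamycin-treated WT and 32.9 and 40.5 in untreated WT. The differences were 2.5 (SE 0.21, limma adjusted p = 5.69e-05), 2.37 (SE 0.22, limma adjusted p = 8.31e-05) and 2.4 (SE 0.16, limma adjusted p = 1.42e-05). The low TRP1 and FRS2 levels of the deletion stand beside these values, and their part in them was not tested. Histidine genes gave HIS1, the first enzyme of the pathway, with 884 and 1313 scaled CPM in the deletion, 280 and 268 in rapamycin-treated WT and 261 and 232 in untreated WT, and HIS4 with 653 and 477 scaled CPM in the deletion, 199.6 and 203 in rapamycin-treated WT and 60.8 and 59.1 in untreated WT. HIS5 had 61.6 and 77.3 scaled CPM in the deletion, 10.98 and 64.2 in rapamycin-treated WT and 18.8 and 15.3 in untreated WT, so that the rapamycin libraries disagreed with each other. Its difference of 1.33 (SE 0.64, limma adjusted p = 0.111) was not called, and without rapamycin replicate 2 it was 2.56.

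Serine, glycine and one-carbon genes had 7 higher and 2 lower of 12 (median 0.61). The count of higher rows was 4 without rapamycin replicate 2. GCV2 of the glycine cleavage system had 188 and 147 scaled CPM in the deletion, 49.3 and 48.01 in rapamycin-treated WT and 12.7 and 11.1 in untreated WT, a difference of 1.75 (SE 0.16, limma adjusted p = 7.46e-05). In the aspartate family, where 6 were higher and 1 lower of 8 tested, with a median of 0.86, the aspartate semialdehyde dehydrogenase HOM2 had 1879 and 2203 scaled CPM in the deletion, 677 and 611 in rapamycin-treated WT and 642 and 561 in untreated WT and the aspartate aminotransferase AAT2 had 95.98 and 90.2 scaled CPM in the deletion, 30.8 and 26.2 in rapamycin-treated WT and 38.8 and 27.7 in untreated WT. They differed by 1.66 (SE 0.17, limma adjusted p = 1.29e-04) and 1.68 (SE 0.18, limma adjusted p = 1.85e-04). The call for HOM3, aspartate kinase, at 1.53, was lost under several alternatives, among them those without either deletion library. Sulfate assimilation and methionine genes had 7 higher and 7 lower of 20 (35% each), beside 25.6% and 29.4% of all rows tested. With only rows of a mean of at least 20 CPM they had 5 higher and 2 lower of 12, and their median of -0.06 turned to 0.34. The regulator MET28 had 5.27 and 7.21 scaled CPM in the deletion, 71.8 and 107 in rapamycin-treated WT and 12.3 and 10.95 in untreated WT, a difference of -3.63 (SE 0.22, limma adjusted p = 1.16e-05), while MET22, a phosphatase needed for sulfate assimilation, had 250.5 and 231 scaled CPM in the deletion, 70.4 and 67.01 in rapamycin-treated WT and 54.1 and 46.96 in untreated WT, a difference of 1.79 (SE 0.13, limma adjusted p = 2.76e-05). De novo purine genes had 4 higher and 2 lower of 15, or 2 higher without rapamycin replicate 2, and their median of 0.14 turned to -0.03 on the deposited scale. ADE8 led them at 1.54 (SE 0.14, limma adjusted p = 7.69e-05).

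Vitamin B6 genes known to respond to nutrient limitation were among the largest differences. SNO1 had 50.2 and 55.1 scaled CPM in the deletion, 5.18 and 3.52 in rapamycin-treated WT and 0.194 and 0 in untreated WT, and SNZ1, which is joined in its row with CTF13 and is therefore uncertain, had 1738 and 1349 scaled CPM in the deletion, 189 and 166 in rapamycin-treated WT and 24.3 and 25.1 in untreated WT. PDX3, the oxidase of the pathway, had 267 and 287 scaled CPM in the deletion, 144 and 142 in rapamycin-treated WT and 93.1 and 88.7 in untreated WT. Differences were 3.34 (SE 0.21, limma adjusted p = 1.27e-05), 3.1 (SE 0.16, limma adjusted p = 4.99e-06) and 0.95 (SE 0.12, limma adjusted p = 4.30e-04). The transcript of GCN4 itself, named for its role and not for its value, averaged 1557 scaled CPM in the deletion, 1776 in rapamycin-treated WT and 885 in untreated WT. Its difference between deletion and rapamycin was -0.20 (SE 0.17, limma adjusted p = 0.366) and was not called, while Gcn4 protein was not measured. Of GCN4 and its regulators, 7 were higher and 2 lower of 13. They included GCD1, a subunit of the exchange factor eIF2B, at 1.2 (SE 0.13, limma adjusted p = 1.66e-04) and SUI2, the alpha subunit of eIF2, at 0.96 (SE 0.12, limma adjusted p = 4.15e-04).

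**Figure D4:**
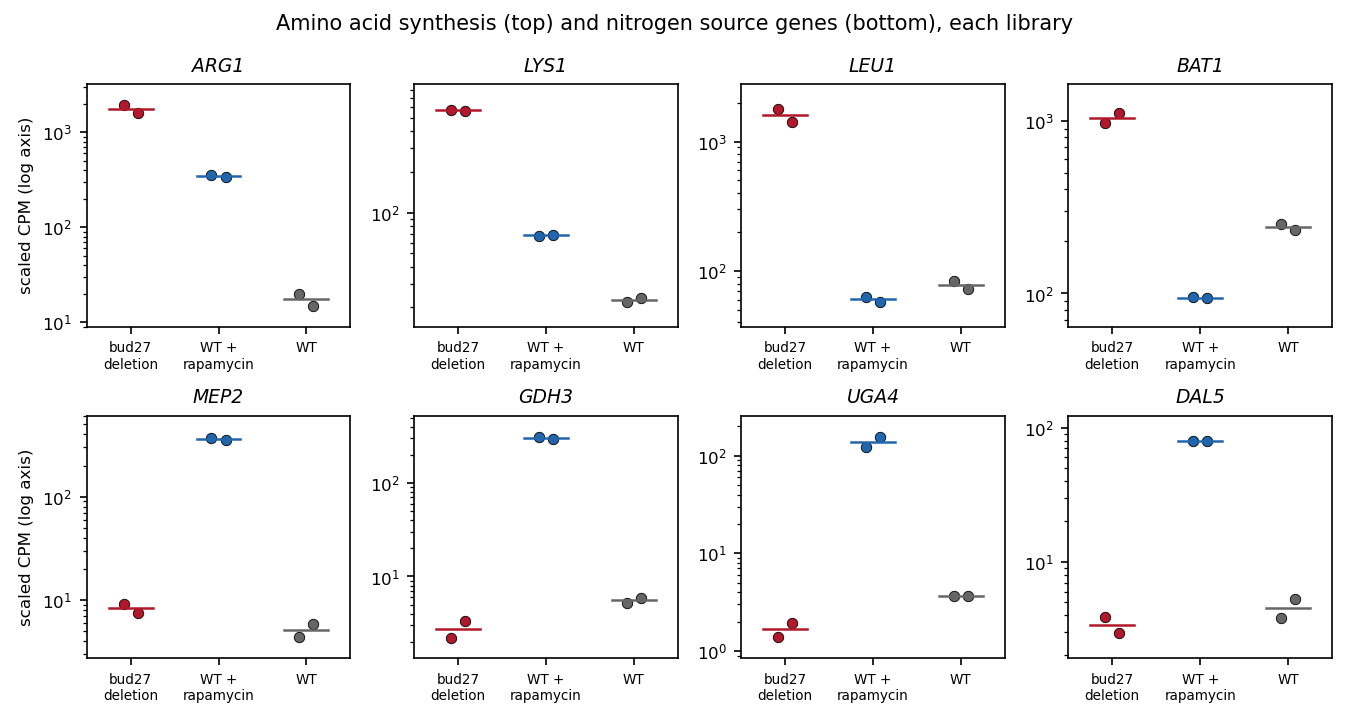
Scaled CPM (log axis) in each library (points) of the bud27 deletion, rapamycin-treated WT and untreated WT, with the mean of 2 samples (line), for 4 amino acid synthesis genes (top) and 4 nitrogen source genes (bottom). The deletion is highest for all 4 top genes, and rapamycin-treated WT is highest for all 4 bottom genes, with the deletion far below it.

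Most rows of the nitrogen source lists were lower in the deletion. For ammonium transport and glutamate and glutamine metabolism 0 were higher and 7 lower of 8 tested, with a median of -2.07, for allantoin and urea catabolism 1 were higher and 11 lower of 12 tested, with a median of -2.89, and for arginine, proline, GABA and asparagine catabolism 1 were higher and 9 lower of 12 tested, with a median of -1.70. The medians of the deletion against untreated WT were 0.01, -0.27 and -0.20 in that order, and those of rapamycin against untreated WT were 2.90, 2.15 and 2.06. Summed over the allantoin and urea list, the levels were 95.98 and 101 scaled CPM in the deletion, 851 and 788 in rapamycin-treated WT and 100 and 112 in untreated WT.

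MEP2 (chromosome XIV, plus strand, bases 357453 to 358952), the ammonium permease with the highest affinity, had 9.15 and 7.596 scaled CPM in the deletion, 371 and 357 in rapamycin-treated WT and 4.46 and 5.96 in untreated WT. The rapamycin libraries were far above both other groups, and the deletion libraries stood slightly above untreated WT. MEP1, a second ammonium permease, had 7.49 and 8.38 scaled CPM in the deletion, 125 and 115 in rapamycin-treated WT and 9.31 and 10.7 in untreated WT. GDH3 had 2.22 and 3.31 scaled CPM in the deletion, 313 and 296 in rapamycin-treated WT and 5.19 and 5.96 in untreated WT, a difference of -6.36 (SE 0.18, limma adjusted p = 1.04e-06). The deletion values of GDH3 rest on 25 reads, against 18155 in rapamycin-treated WT. MEP1 and MEP2 differed by -3.76 (SE 0.15, limma adjusted p = 1.91e-06) and -5.29 (SE 0.17, limma adjusted p = 1.04e-06).

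Allantoin genes break down a purine-derived nitrogen source. DAL5, the allantoate permease, had 3.88 and 2.92 scaled CPM in the deletion, 78.9 and 79.7 in rapamycin-treated WT and 3.78 and 5.27 in untreated WT, a difference of -4.2 (SE 0.20, limma adjusted p = 3.39e-06). DAL3, ureidoglycolate lyase, had 9.71 and 8.96 scaled CPM in the deletion, 155 and 139 in rapamycin-treated WT and 3.05 and 3.42 in untreated WT, a difference of -3.84 (SE 0.15, limma adjusted p = 1.89e-06). DUR1,2, urea amidolyase, had 18.03 and 33.3 scaled CPM in the deletion, 403 and 367 in rapamycin-treated WT and 50.2 and 52.7 in untreated WT, a difference of -3.92 (SE 0.25, limma adjusted p = 1.21e-05). GATAAG was found in 11 of 13 windows of this list (84.6%). The GABA genes UGA4, UGA2 and UGA1 were likewise highest after rapamycin. UGA4, the permease, had 1.39 and 1.95 scaled CPM in the deletion, 121 and 155 in rapamycin-treated WT and 3.68 and 3.697 in untreated WT with 15 reads in the deletion, UGA2 had 11.9 and 11.3 scaled CPM in the deletion, 419 and 392 in rapamycin-treated WT and 14.1 and 19.8 in untreated WT, and the transaminase UGA1 had 54.1 and 61.5 scaled CPM in the deletion, 639.9 and 577 in rapamycin-treated WT and 41.2 and 43.4 in untreated WT. Their differences were -5.7 (SE 0.19, limma adjusted p = 1.04e-06), -5.01 (SE 0.17, limma adjusted p = 1.04e-06) and -3.37 (SE 0.13, limma adjusted p = 1.89e-06).

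Among the regulators of these genes, the GATA activator GAT1 had 8.32 and 13.4 scaled CPM in the deletion, 27.1 and 28 in rapamycin-treated WT and 4.56 and 6.02 in untreated WT, a difference of -1.3 (SE 0.23, limma adjusted p = 0.00223). GLN3, the other activator, had 65.2 and 54.9 scaled CPM in the deletion, 43.7 and 46.3 in rapamycin-treated WT and 28.6 and 23.6 in untreated WT and was not called (0.40 (SE 0.15, limma adjusted p = 0.0553)). URE2, which retains Gln3 in the cytoplasm, had 98.2 and 89.8 scaled CPM in the deletion, 70.5 and 72.6 in rapamycin-treated WT and 60.9 and 63.4 in untreated WT. Its difference of 0.39 (SE 0.12, limma adjusted p = 0.0291) was no longer called on the deposited scale or without either rapamycin library. GZF3, a GATA repressor, had 19.97 and 22.01 scaled CPM in the deletion, 21.5 and 17.6 in rapamycin-treated WT and 11.8 and 10.3 in untreated WT and was not called (limma adjusted p = 0.635). The repressor DAL80 was at or near 0 in every library and was not tested. Amino acid permeases had 4 higher and 11 lower of 19 (median -0.83). AGP1, a broad permease, had 60.5 and 56.1 scaled CPM in the deletion, 329.7 and 345 in rapamycin-treated WT and 20.8 and 20.9 in untreated WT, and DIP5, for glutamate and aspartate, had 11.1 and 10.9 scaled CPM in the deletion, 125 and 152 in rapamycin-treated WT and 25.7 and 43.5 in untreated WT. They differed by -2.51 (SE 0.12, limma adjusted p = 4.20e-06) and -3.53 (SE 0.23, limma adjusted p = 1.52e-05). BAP3, for branched-chain amino acids, was higher, with 139 and 117 scaled CPM in the deletion, 53.8 and 60.1 in rapamycin-treated WT and 71.8 and 85.6 in untreated WT, a difference of 1.15 (SE 0.15, limma adjusted p = 4.89e-04).

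Ribosomal protein, assembly factor and tRNA synthetase genes were mostly higher in the deletion than after rapamycin. With the TMM factors, the medians of the deletion lay between those of rapamycin-treated and untreated WT. For 40S ribosomal proteins 38 were higher and 1 lower of 55 tested, with a median of 0.93, and for 60S ribosomal proteins 55 were higher and 2 lower of 80 tested, with a median of 0.90. The count of lower 60S rows was 5 without deletion replicate 2 and 4 on the deposited scale. Against untreated WT their medians were -0.52 and -0.60 in the deletion and -1.59 and -1.50 in rapamycin-treated WT. Summed levels of the 40S list were 79060 and 101300 scaled CPM in the deletion, 47590 and 46630 in rapamycin-treated WT and 147000 and 133800 in untreated WT. Those of the 60S list were 105400 and 135000 scaled CPM in the deletion, 71890 and 72350 in rapamycin-treated WT and 213800 and 191400 in untreated WT. The deletion libraries were thus between the other groups in both sums. Most ribosomal protein genes exist as near-identical pairs whose reads the counting can split, so single values are uncertain. RPL35A had 1738 and 1442 scaled CPM in the deletion, 281 and 268 in rapamycin-treated WT and 760.4 and 766 in untreated WT, a difference of 2.52 (SE 0.15, limma adjusted p = 1.16e-05), and RPL19B had 3108 and 2756 scaled CPM in the deletion, 712 and 672 in rapamycin-treated WT and 2053 and 1855 in untreated WT, a difference of 2.08 (SE 0.17, limma adjusted p = 4.83e-05). RPS14B had 162 and 195 scaled CPM in the deletion, 39.5 and 39.6 in rapamycin-treated WT and 221 and 277 in untreated WT, a difference of 2.14 (SE 0.16, limma adjusted p = 2.80e-05). RPS20, a gene with no second copy, had 1100.2 and 625 scaled CPM in the deletion, 133 and 331 in rapamycin-treated WT and 799 and 704 in untreated WT, with a wide spread within the deletion and the rapamycin groups (1.98 (SE 0.41, limma adjusted p = 0.00448)). RPL41A was among the 2 of its list called lower, with 910.5 and 430.4 scaled CPM in the deletion, 2678 and 2561 in rapamycin-treated WT and 5818 and 5232 in untreated WT, a difference of -2.06 (SE 0.32, limma adjusted p = 0.00114).

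Assembly factors of both subunits followed. For 40S assembly and the small subunit processome 42 were higher and 2 lower of 65 tested, with a median of 0.66, and for 60S assembly 47 were higher and 4 lower of 74 tested, with a median of 0.67, with 7 lower on the deposited scale. UTP14 had 67.7 and 66.8 scaled CPM in the deletion, 16.6 and 14.7 in rapamycin-treated WT and 46.6 and 43.3 in untreated WT. NOP56, a core protein of the snoRNPs that guide rRNA methylation, had 235 and 224 scaled CPM in the deletion, 55.6 and 62.3 in rapamycin-treated WT and 152 and 125 in untreated WT, and SOF1, also of the processome, had 92.1 and 87.6 scaled CPM in the deletion, 24.1 and 25.5 in rapamycin-treated WT and 57.1 and 57.4 in untreated WT. In these 3 genes the deletion libraries stood above untreated WT as well as above rapamycin. Differences from rapamycin were 2.04 (SE 0.13, limma adjusted p = 1.52e-05), 1.95 (SE 0.14, limma adjusted p = 2.80e-05) and 1.82 (SE 0.12, limma adjusted p = 1.76e-05). With the TMM factors, most called rows of both lists lay below untreated WT in the deletion. There 5 were higher and 27 lower for 40S assembly (median -0.29), and 8 higher and 26 lower for 60S assembly (median -0.24). Both medians are smaller than the shift of all rows against untreated WT between the TMM and deposited scales, so their direction depends on the scaling. DRS1, a helicase of 60S assembly, had 44.9 and 40.5 scaled CPM in the deletion, 12.7 and 12.6 in rapamycin-treated WT and 40.96 and 42.1 in untreated WT, with the deletion overlapping untreated WT and a difference from rapamycin of 1.68 (SE 0.14, limma adjusted p = 4.18e-05). NOG1, a GTPase of 60S assembly, went the other way, with 15.3 and 18.9 scaled CPM in the deletion, 108 and 112 in rapamycin-treated WT and 188 and 142 in untreated WT, a difference of -2.62 (SE 0.17, limma adjusted p = 1.48e-05). The PAC core was found in 60 of 67 windows of the 40S assembly list (89.6%) and in 63 of 77 of the 60S list (81.8%), and the Gcn4 letters in 0 of 78 windows of 60S ribosomal protein genes.

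Translation factors had 16 higher and 9 lower of 39 (median 0.35), or 10 higher without rapamycin replicate 1. STM1, a ribosome-binding protein, had 1331 and 1238 scaled CPM in the deletion, 453 and 444 in rapamycin-treated WT and 1055 and 907 in untreated WT, a difference of 1.52 (SE 0.15, limma adjusted p = 1.36e-04). The eIF5A genes moved apart. ANB1 had 0.277 and 0 scaled CPM in the deletion, 119 and 208 in rapamycin-treated WT and 20.2 and 15.2 in untreated WT, with 1 read in the deletion against 9284, 1368-fold lower with an exact 95% counting interval of 245 to 54030. HYP2, the aerobic form, is joined in its row with MTC7 and had 2551 and 2593 scaled CPM in the deletion, 557 and 496 in rapamycin-treated WT and 2259.6 and 1922 in untreated WT. As near-identical copies the pair can share reads. Among cytosolic tRNA synthetases 13 were higher and 1 lower of 21 tested, with a median of 0.77. The leucine enzyme gene CDC60 had 589 and 508 scaled CPM in the deletion, 119 and 113 in rapamycin-treated WT and 236 and 189.6 in untreated WT, and the isoleucine enzyme gene ILS1 had 838 and 556 scaled CPM in the deletion, 162 and 149.7 in rapamycin-treated WT and 312 and 299.8 in untreated WT. Both lay above untreated WT in the deletion and below it after rapamycin, with differences of 2.23 (SE 0.16, limma adjusted p = 1.98e-05) and 2.13 (SE 0.20, limma adjusted p = 8.25e-05). Over the whole list, 5 rows were higher and 8 lower in the deletion than in untreated WT. FRS2, the only one of the list called lower, is the neighbour of BUD27 described above.

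Subunits of the nuclear RNA polymerases, whose assembly Bud27 is known for, were also compared. RNA polymerase I genes had 8 higher and 2 lower of 15 (median 0.41), and 5 higher without either rapamycin library or on the deposited scale. RNA polymerase II genes had 4 and 0 of 7 (0.43). RNA polymerase III genes had 11 and 1 of 20 (0.53), or 7 higher without either rapamycin library. Shared subunits had 5 and 0 of 7 (0.72). The shared subunits had a median of -0.02 in the deletion and -0.89 in rapamycin-treated WT against untreated WT. In that comparison 0 were called higher and 3 lower of 7 in the deletion, and 0 and 7 in rapamycin-treated WT. RPA135, the second largest subunit of polymerase I, had 151 and 169 scaled CPM in the deletion, 77.4 and 74.05 in rapamycin-treated WT and 241 and 215 in untreated WT, a difference of 1.06 (SE 0.13, limma adjusted p = 3.60e-04). RPB5, the shared subunit known to bind Bud27, had 87.7 and 73.6 scaled CPM in the deletion, 34.7 and 36.2 in rapamycin-treated WT and 58.6 and 75.4 in untreated WT, a difference of 1.16 (SE 0.16, limma adjusted p = 6.81e-04). RPC40, shared by polymerases I and III, had 142 and 91.9 scaled CPM in the deletion, 46.3 and 46.2 in rapamycin-treated WT and 112 and 105 in untreated WT, a difference of 1.29 (SE 0.20, limma adjusted p = 0.00102). RPC17 of polymerase III had 42.2 and 62.7 scaled CPM in the deletion, 17.7 and 16.7 in rapamycin-treated WT and 39.9 and 43.1 in untreated WT, a difference of 1.53 (SE 0.19, limma adjusted p = 3.88e-04). Transcripts only were measured, so nothing here bears on whether the enzymes were assembled.

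The partners of this kind of assembly gave 7 higher and 0 lower of 10 for prefoldin and R2TP, with a median of 0.46, but 3 higher without either rapamycin library and on the deposited scale. GIM5, a prefoldin subunit, had 74.6 and 66.6 scaled CPM in the deletion, 27.2 and 28.1 in rapamycin-treated WT and 39.3 and 37.8 in untreated WT, a difference of 1.32 (SE 0.13, limma adjusted p = 1.20e-04). The CCT chaperonin had 5 and 0 of 8 (median 0.59), but 3 higher without rapamycin replicate 1, and 3 higher and 1 lower on the deposited scale. CCT7 had 156 and 152 scaled CPM in the deletion, 66.01 and 69.8 in rapamycin-treated WT and 171 and 173 in untreated WT, a difference of 1.17 (SE 0.12, limma adjusted p = 1.36e-04). Genes of the TOR pathway and its outputs had 3 higher and 9 lower of 26 (median -0.04), with 5 lower without rapamycin replicate 1 and 6 higher without deletion replicate 2. FHL1, an activator of ribosomal protein genes, had 26.1 and 22.01 scaled CPM in the deletion, 43.97 and 55.1 in rapamycin-treated WT and 67.8 and 66.6 in untreated WT, a difference of -1.01 (SE 0.16, limma adjusted p = 0.00115). SFP1, another such activator, is joined in its row with a dubious frame and had 56.9 and 103 scaled CPM in the deletion, 246 and 229 in rapamycin-treated WT and 223 and 159.6 in untreated WT, a difference of -1.62 (SE 0.27, limma adjusted p = 0.00165).

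**Figure D5:**
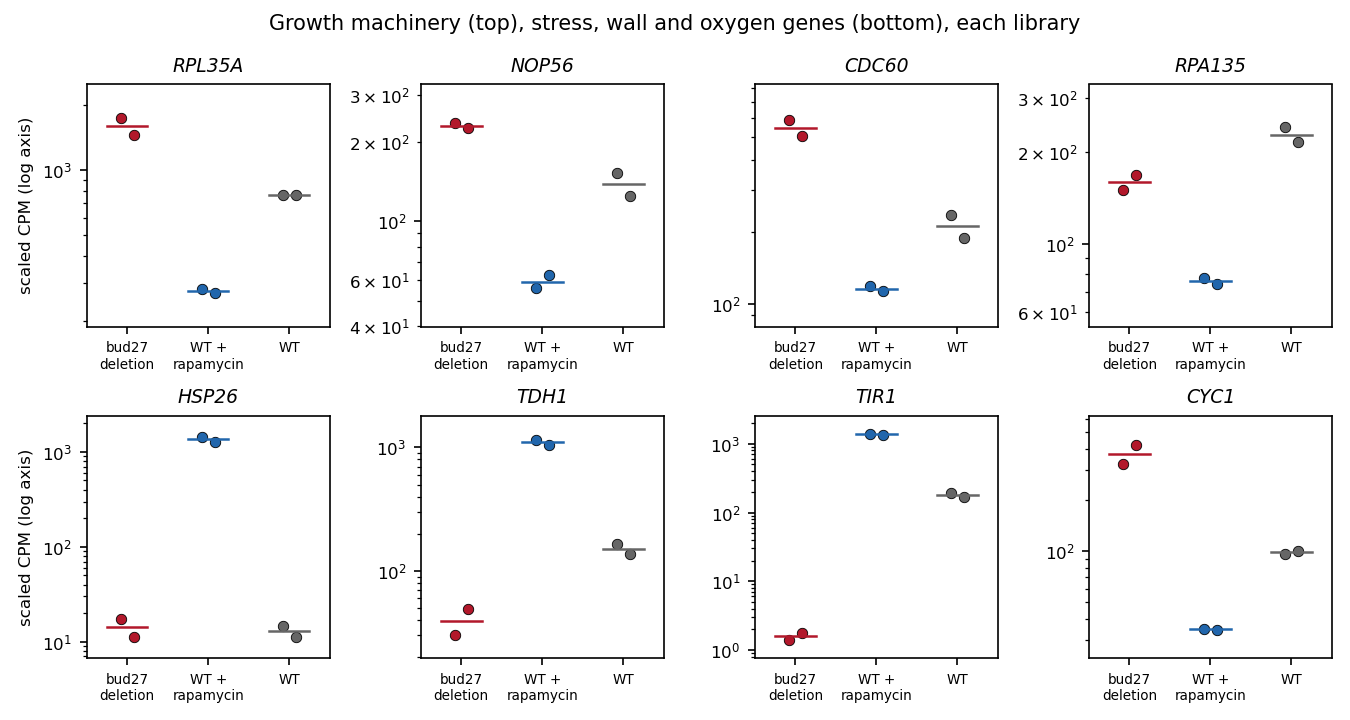
Scaled CPM (log axis) in each library (points) of the bud27 deletion, rapamycin-treated WT and untreated WT, with the mean of 2 samples (line), for 4 growth genes (top) and 4 genes of stress, glycolysis, wall and respiration (bottom). Rapamycin-treated WT is lowest for the 4 top genes and for CYC1, and highest for HSP26, TDH1 and TIR1.

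Most rows of the Msn2/4 stress, trehalose and glycogen, and vacuolar protease lists were lower in the deletion than after rapamycin. Of the Msn2/4 stress list 0 rows were higher and 37 lower of 42, with a median of -1.95. The list had a median of -0.35 in the deletion and 1.66 in rapamycin-treated WT against untreated WT. HSP26 (chromosome II, plus strand, bases 382030 to 382674) had 17.5 and 11.1 scaled CPM in the deletion, 1440.3 and 1268 in rapamycin-treated WT and 14.7 and 11.1 in untreated WT. The deletion and untreated WT overlapped, and the rapamycin libraries stood far above both. DDR2, a gene of the general stress response, had 16.1 and 23.8 scaled CPM in the deletion, 960.3 and 846 in rapamycin-treated WT and 16.1 and 30.8 in untreated WT, again with the deletion overlapping untreated WT. The differences were -6.5 (SE 0.22, limma adjusted p = 1.04e-06) and -5.45 (SE 0.29, limma adjusted p = 6.09e-06). AGGGG stood in 32 of 37 windows of this list (86.5%), against 23.2% of rows tested. The list is one of Msn2/4 response genes, so a high share can follow from how it was chosen. SSA4, the stress-induced Hsp70, had 4.72 and 2.53 scaled CPM in the deletion, 91.7 and 85.01 in rapamycin-treated WT and 8.34 and 7.53 in untreated WT, a difference of -4.31 (SE 0.23, limma adjusted p = 6.09e-06) on 30 reads in the deletion against 5275. Over the wider list of Hsp70, Hsp90 and co-chaperones 7 were higher and 11 lower of 27, with 4 and 3 higher without rapamycin replicates 1 and 2. SSE2, the stress-induced Hsp110, had 23.6 and 34.7 scaled CPM in the deletion, 208 and 184 in rapamycin-treated WT and 34.5 and 33.1 in untreated WT, a difference of -2.73 (SE 0.19, limma adjusted p = 1.75e-05).

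Trehalose and glycogen genes had 0 higher and 14 lower of 16 (median -1.47). GDB1, the glycogen debranching enzyme, had 3.33 and 3.895 scaled CPM in the deletion, 56.6 and 72.8 in rapamycin-treated WT and 14.8 and 15.4 in untreated WT, a difference of -3.82 (SE 0.17, limma adjusted p = 2.99e-06). TSL1, a subunit of trehalose synthase, had 14.4 and 32.3 scaled CPM in the deletion, 111 and 98.8 in rapamycin-treated WT and 31.9 and 42.9 in untreated WT, a difference of -2.22 (SE 0.32, limma adjusted p = 8.10e-04). Glycogen phosphorylase, GPH1, shares its row with another frame and differed by -4.07 (SE 0.16, limma adjusted p = 1.96e-06). Vacuolar proteases and their inhibitors had 0 higher and 10 lower of 13 (median -2.24). These counts include YPS3, a protease of the cell surface and not of the vacuole, at -3.50 (SE 0.21, limma adjusted p = 9.81e-06). TFS1, an inhibitor of carboxypeptidase Y, had 8.88 and 14.2 scaled CPM in the deletion, 91.6 and 104 in rapamycin-treated WT and 17.7 and 15.7 in untreated WT, and PAI3, an inhibitor of proteinase A, had 7.77 and 10.1 scaled CPM in the deletion, 64.2 and 54.1 in rapamycin-treated WT and 9.16 and 7.74 in untreated WT. They differed by -3.01 (SE 0.21, limma adjusted p = 2.17e-05) and -2.6 (SE 0.18, limma adjusted p = 2.18e-05). Autophagy genes had 5 higher and 17 lower of 34 (median -0.57), and the higher count was 2 without either rapamycin library and on the deposited scale. ATG8, the ubiquitin-like protein of the autophagosome, had 6.66 and 6.43 scaled CPM in the deletion, 45.4 and 42.8 in rapamycin-treated WT and 6.25 and 7.94 in untreated WT, and ATG1, the kinase that starts the process, had 14.7 and 14.6 scaled CPM in the deletion, 46.7 and 46.4 in rapamycin-treated WT and 18.3 and 15.3 in untreated WT. In both genes the deletion was near untreated WT, and the differences from rapamycin were -2.58 (SE 0.17, limma adjusted p = 1.35e-05) and -1.6 (SE 0.15, limma adjusted p = 8.20e-05). The vacuolar proton ATPase had 2 higher and 8 lower of 15, or 4 lower without rapamycin replicate 1 and 4 higher without deletion replicate 1. VMA3, a subunit of its membrane ring, had 499.6 and 540.1 scaled CPM in the deletion, 1240 and 1173 in rapamycin-treated WT and 2888 and 2987 in untreated WT, a difference of -1.21 (SE 0.16, limma adjusted p = 4.42e-04), with both groups below untreated WT. VMA2, a nucleotide-binding subunit, had 94.04 and 149 scaled CPM in the deletion, 54.7 and 48.5 in rapamycin-treated WT and 54.8 and 50.9 in untreated WT, a difference of 1.18 (SE 0.21, limma adjusted p = 0.00204).

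The proteasome had 12 higher and 3 lower of 36, but 3 and 2 higher without rapamycin replicates 1 and 2, 7 without either untreated WT library and 2 on the deposited scale. Its median was 0.19. RPN4, the transcription factor of proteasome genes, had 43.3 and 47.1 scaled CPM in the deletion, 79.2 and 74.05 in rapamycin-treated WT and 51.9 and 63.4 in untreated WT, a difference of -0.75 (SE 0.14, limma adjusted p = 0.00317).

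Carbon genes gave 1 higher and 11 lower of 26 for glycolysis and fermentation (median -0.67), and 19 lower on the deposited scale. Against untreated WT the median of the list lay below 0 in both groups, at -1.31 in the deletion and -0.78 in rapamycin-treated WT. TDH1, an isoform of glyceraldehyde phosphate dehydrogenase with near-identical copies, had 30.5 and 48.7 scaled CPM in the deletion, 1152 and 1049.7 in rapamycin-treated WT and 165 and 136 in untreated WT, a difference of -4.8 (SE 0.22, limma adjusted p = 2.99e-06). Glucokinase, GLK1, and hexokinase, HXK1, each joined with another frame, differed by -2.82 (SE 0.15, limma adjusted p = 5.26e-06) and -3.33 (SE 0.34, limma adjusted p = 1.38e-04). Hexose transporters and glucose sensors had 1 higher and 7 lower of 12 (median -0.92). HXT4 had 1.94 and 2.34 scaled CPM in the deletion, 102 and 135 in rapamycin-treated WT and 67.8 and 81.1 in untreated WT, with 19 reads in the deletion against 6864 (-5.24 (SE 0.18, limma adjusted p = 1.04e-06)). HXT2, an inducible transporter, had 68.8 and 98.4 scaled CPM in the deletion, 466 and 536 in rapamycin-treated WT and 626 and 779 in untreated WT, a difference of -2.59 (SE 0.20, limma adjusted p = 3.57e-05). HXT1, the low-affinity transporter of high glucose, went the other way with 178 and 149 scaled CPM in the deletion, 42.2 and 42.4 in rapamycin-treated WT and 285 and 351 in untreated WT, a difference of 1.92 (SE 0.15, limma adjusted p = 4.07e-05).

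Gluconeogenesis, the glyoxylate cycle and fat oxidation had 0 higher and 16 lower of 21 (median -1.11). CIT2, the peroxisomal citrate synthase and a marker of the retrograde response, had 37.7 and 36.03 scaled CPM in the deletion, 783 and 925 in rapamycin-treated WT and 41.3 and 69.7 in untreated WT, a difference of -4.49 (SE 0.23, limma adjusted p = 4.99e-06). CRC1, a mitochondrial carnitine carrier, had 2.22 and 2.92 scaled CPM in the deletion, 60.5 and 51.8 in rapamycin-treated WT and 2.96 and 3.22 in untreated WT, a difference of -4.0 (SE 0.18, limma adjusted p = 2.99e-06). The acetyl-CoA synthetase gene ACS1 had 5.83 and 8.18 scaled CPM in the deletion, 83.6 and 90.4 in rapamycin-treated WT and 28.8 and 20.2 in untreated WT, a difference of -3.47 (SE 0.21, limma adjusted p = 1.16e-05). For the tricarboxylic acid cycle and retrograde targets 4 were higher and 13 lower of 25 tested, with a median of -0.46. PYC1, pyruvate carboxylase, had 67.4 and 70.9 scaled CPM in the deletion, 1076 and 1072 in rapamycin-treated WT and 64.96 and 77.3 in untreated WT, so that the deletion overlapped untreated WT, a difference from rapamycin of -3.94 (SE 0.14, limma adjusted p = 1.04e-06).

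Respiratory chain and ATP synthase genes had 9 higher and 9 lower of 36. Their median of 0.04 turned to -0.13 on the deposited scale and to -0.22 without deletion replicate 2. Lower calls numbered 14 without deletion replicate 2, 5 without deletion replicate 1, 4 and 3 without rapamycin replicates 1 and 2, and 5 without either WT library, and without deletion replicate 1 there were 14 higher. CYC1 had 327 and 423 scaled CPM in the deletion, 34.7 and 34.4 in rapamycin-treated WT and 96.7 and 100.2 in untreated WT, a difference of 3.39 (SE 0.15, limma adjusted p = 2.83e-06), and NDE1, an external NADH dehydrogenase, had 303 and 426 scaled CPM in the deletion, 75.2 and 77.6 in rapamycin-treated WT and 358 and 321 in untreated WT, a difference of 2.22 (SE 0.18, limma adjusted p = 4.00e-05). COX5B, the subunit form used at low oxygen, had 61.6 and 63.5 scaled CPM in the deletion, 331 and 296 in rapamycin-treated WT and 27.6 and 28.1 in untreated WT, a difference of -2.31 (SE 0.13, limma adjusted p = 6.81e-06). Mitochondrial ribosomal proteins had 25 higher and 4 lower of 66 (median 0.19), but 12 and 7 higher without rapamycin replicates 1 and 2 and 10 on the deposited scale. Their lower count was 7 without deletion replicate 2, and 2 without rapamycin replicate 2 or either untreated WT library. RSM18 had 65.2 and 69.5 scaled CPM in the deletion, 31.1 and 31.6 in rapamycin-treated WT and 32.6 and 38.5 in untreated WT, a difference of 1.08 (SE 0.14, limma adjusted p = 4.19e-04).

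Cell wall genes were mostly lower in the deletion, and the wall gene TIR1 had the largest fall of all rows named. All 5 tested anaerobic wall genes were lower, with a median of -3.75, and against untreated WT the medians were -1.90 in the deletion and 1.98 in rapamycin-treated WT. TIR1 (chromosome V, plus strand, bases 175248 to 176012) had 1.39 and 1.75 scaled CPM in the deletion, 1383 and 1365 in rapamycin-treated WT and 190.2 and 166 in untreated WT, with 14 reads in the deletion against 81608. It was 859-fold lower than after rapamycin, with an exact 95% counting interval of 512 to 1571. None of the 4 motifs stood in its window. TIR3 had 7.21 and 7.01 scaled CPM in the deletion, 110.4 and 106 in rapamycin-treated WT and 29.8 and 23.9 in untreated WT, and TIP1 had 72.1 and 125 scaled CPM in the deletion, 3921 and 3541 in rapamycin-treated WT and 965 and 888 in untreated WT. In these 3 genes the deletion lay below untreated WT and rapamycin above it. The differences were -9.07 (SE 0.14, limma adjusted p = 1.93e-08), -3.75 (SE 0.15, limma adjusted p = 1.97e-06) and -5.28 (SE 0.25, limma adjusted p = 3.37e-06). Wall mannoproteins had 0 higher and 10 lower of 14 (median -1.66). SED1, the main wall protein of resting cells, had 392 and 501 scaled CPM in the deletion, 6442 and 5908 in rapamycin-treated WT and 1551 and 1734 in untreated WT, a difference of -3.8 (SE 0.19, limma adjusted p = 4.99e-06). CCW14 had 224 and 299 scaled CPM in the deletion, 2091 and 2136 in rapamycin-treated WT and 718 and 654 in untreated WT, a difference of -3.03 (SE 0.18, limma adjusted p = 9.39e-06). Glucan and chitin genes had 2 higher and 23 lower of 28 (median -0.89). The stress-induced glucan synthase GSC2 had 18.03 and 24.7 scaled CPM in the deletion, 362 and 329 in rapamycin-treated WT and 47.9 and 54.1 in untreated WT, a difference of -3.97 (SE 0.17, limma adjusted p = 2.44e-06), and the glucan transferase BGL2 had 453 and 477 scaled CPM in the deletion, 2892 and 2655 in rapamycin-treated WT and 1090.3 and 1078 in untreated WT, a difference of -2.57 (SE 0.15, limma adjusted p = 1.05e-05). For SED1, CCW14, GSC2 and BGL2 the order was again deletion lowest and rapamycin highest.

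Genes switched by oxygen had 4 higher and 6 lower of 13 (median -0.23). The low-oxygen members ANB1, COX5B and AAC3, an ADP/ATP carrier, were all lower, AAC3 with 1.11 and 2.34 scaled CPM in the deletion, 39.7 and 36.96 in rapamycin-treated WT and 35.3 and 30.5 in untreated WT, a difference of -3.89 (SE 0.23, limma adjusted p = 9.39e-06). HMG1, an isoform of HMG-CoA reductase, was higher, with 146 and 112 scaled CPM in the deletion, 33.1 and 33.6 in rapamycin-treated WT and 51.1 and 46.6 in untreated WT, a difference of 1.91 (SE 0.16, limma adjusted p = 4.45e-05). The activator HAP1 is not analysed here. Ergosterol genes had 14 higher and 6 lower of 27 (median 0.48). ERG1, squalene epoxidase, which needs oxygen, had 126 and 208 scaled CPM in the deletion, 560.5 and 572 in rapamycin-treated WT and 380 and 364 in untreated WT, a difference of -1.8 (SE 0.22, limma adjusted p = 3.42e-04). ERG29 had 56.6 and 51.4 scaled CPM in the deletion, 15.1 and 14.4 in rapamycin-treated WT and 17.9 and 18 in untreated WT, a difference of 1.8 (SE 0.14, limma adjusted p = 3.23e-05).

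Iron genes had 4 higher and 9 lower of 26 (median -0.05). FET3, the ferroxidase of high-affinity uptake, had 276 and 222 scaled CPM in the deletion, 47.3 and 45.9 in rapamycin-treated WT and 219 and 247 in untreated WT, a difference of 2.38 (SE 0.15, limma adjusted p = 1.18e-05), with the deletion overlapping untreated WT. FIT2, a wall protein that holds siderophores, had 14.4 and 9.15 scaled CPM in the deletion, 116 and 109 in rapamycin-treated WT and 284 and 319.6 in untreated WT, a difference of -3.18 (SE 0.20, limma adjusted p = 1.18e-05), and FET4, the low-affinity transporter, had 7.49 and 8.38 scaled CPM in the deletion, 48.3 and 48.5 in rapamycin-treated WT and 105 and 117 in untreated WT, a difference of -2.47 (SE 0.14, limma adjusted p = 7.40e-06). The zinc transporter gene ZRT1 had 7.21 and 11.5 scaled CPM in the deletion, 141 and 145 in rapamycin-treated WT and 76.7 and 84.1 in untreated WT, a difference of -3.83 (SE 0.20, limma adjusted p = 5.26e-06), in a zinc and copper list with 2 higher and 5 lower of 9, or 3 lower without either rapamycin library. Phosphate genes had 8 higher and 3 lower of 20 (median 0.30). PHO84 had 475 and 453 scaled CPM in the deletion, 22.6 and 20.04 in rapamycin-treated WT and 23.2 and 24.99 in untreated WT, and SPL2 had 94.3 and 68.2 scaled CPM in the deletion, 2.999 and 2.56 in rapamycin-treated WT and 3.39 and 5.13 in untreated WT. In both, rapamycin-treated and untreated WT lay close together while the deletion was far above them, with differences of 4.38 (SE 0.13, limma adjusted p = 1.04e-06) and 4.43 (SE 0.23, limma adjusted p = 5.26e-06). VTC1, of polyphosphate synthesis in the vacuole, had 616 and 668 scaled CPM in the deletion, 193 and 177 in rapamycin-treated WT and 300.2 and 345 in untreated WT, a difference of 1.79 (SE 0.14, limma adjusted p = 3.90e-05).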

How the data were processed

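The authors deposited CPM values, reads scaled to a common library total, in 1 table with a column for each of the 6 samples. Per the submitters' processing notes, FastQC, HISAT2, DESeq and DESeq2 were used with the genome build R64. Not given in the sources used here are versions, the counting tool, its strand setting and its treatment of reads with several matches. In each library 100% of the CPM values were whole multiples of 1 read within 0.01 reads, so reads per row were recovered.

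Since the unit was CPM, log2(scaled CPM + 1) values were fitted with limma 3.58.1 in R 4.3.3, using a trend on abundance, with 3 groups of 2 samples in 1 model, 3 residual degrees of freedom and a median of 4.94 prior ones. Scaling used TMM factors (edgeR 4.0.16) of 1.12 and 1.01 for the deletion, 1.19 and 1.20 for rapamycin and 0.767 and 0.805 for untreated WT. Rows passed edgeR's expression filter with a minimum count of 10, and p-values were adjusted after Benjamini and Hochberg. Replicates of each group differed beyond sampling noise. On the recovered reads, edgeR's quasi-likelihood test called 1384 rows higher and 1527 lower, and DESeq2 1.42.0 called 1400 and 1407.

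The comparison, the 57 gene lists and the tests were chosen with earlier results of these data known. Named were BUD27, the 12 largest rises and falls, up to 3 called members of each list with the largest differences (all of them at a mean of at least 20 CPM) and all members of lists of 6 or fewer. A gene that this rule names is not reported here. Lists are described by counts and medians, with no set test. Of 5780 feature names, 5458 matched the R64 annotation, which supplied coordinates and windows.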

Additional observations from a re-analysis of the deposited data

Results flagged for a closer look

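Reads that fell outside every listed row made up 31.16% and 27.69% of the total in the deletion libraries, against 21.9% and 21.9% in rapamycin-treated WT and 18.8% and 22.4% in untreated WT. Both deletion libraries lay above all 4 others, in reads that no comparison here uses. What these reads hold was not examined, and their part in any difference was not tested.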

How the results depend on the processing

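Of 181 named genes tested, 171 were called, and 165 of these kept the call under all 18 alternatives that gave them a value. BAR1, CLB1, CLN1, HOM3, RPN3 and URE2 lost it under at least 1, and 0 called genes changed sign. Among genes that were not called, the log2 difference of HIS6 (the row shared with YIL020C-A) was 0.013 with DESeq2 and that of GZF3 -0.060 on the deposited scale, each with its sign changed. With 1 library left out, HIS6 ran from -0.292 to 0.22, GZF3 from -0.022 to 0.256, STE2 from -0.268 to 0.029 and CAN1 from -0.675 to 0.15. The causes were not tested. With only rows of a mean of at least 20 CPM, 936 rows were higher and 996 lower, from fewer rows tested. Leaving out 1 library gave 907 to 1541 rows higher and 1137 to 1720 lower, where the lone sample of a group is assumed to vary like the others. On the deposited scale 938 were higher and 1829 lower. Medians of 7 of 57 lists changed sign under at least 1 alternative, all 7 lists with a main median between -0.06 and 0.14.

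Replicate numbers are shared between groups. The deviations of same-numbered libraries had correlations across rows of 0.04 between deletion and rapamycin, -0.05 between deletion and WT and -0.10 between rapamycin and WT. These show no strong shared replicate effect, but they cannot tell whether same-numbered samples were prepared together. With a replicate block 1312 rows were higher and 1496 lower. The deletion libraries were the shallowest, and values there of a few reads, as for TIR1, ANB1, UGA4 and TRP1, have wide counting intervals. With 2 samples a group, the spread rests on a trend shared by all rows.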

Other observations

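Lists outside the main functions stand here beside the background of all rows tested, 25.6% called higher and 29.4% lower. Histone rows were called less often than that, at 0% higher and 10% lower. The cyclin list had 37.5% higher and 25% lower. Of the sporulation genes, normally silent in haploid cells, 0 were higher and 7 lower of 7, with a median of -1.25, and 4 lower without rapamycin replicate 1. Their summed level was 15.3 and 20.8 scaled CPM in the deletion, 59.4 and 61.4 in rapamycin-treated WT and 19.4 and 20.5 in untreated WT. Pheromone response genes had 1 higher and 4 lower of 8. The agglutinin gene AGA1 had 14.7 and 14.02 scaled CPM in the deletion, 63.9 and 59.6 in rapamycin-treated WT and 29.7 and 22.9 in untreated WT, a difference of -2.03 (SE 0.16, limma adjusted p = 3.92e-05), and PRM5, a pheromone-regulated membrane protein, had 29.7 and 34.1 scaled CPM in the deletion, 95.7 and 101 in rapamycin-treated WT and 13.4 and 17.5 in untreated WT, a difference of -1.6 (SE 0.16, limma adjusted p = 1.38e-04). AGA2, the partner of Aga1 and an a-specific gene, had 33.6 and 33.3 scaled CPM in the deletion, 104 and 99.1 in rapamycin-treated WT and 28.99 and 29.5 in untreated WT, a difference of -1.57 (SE 0.12, limma adjusted p = 3.77e-05). Among histone genes the linker histone gene HHO1 was the 1 row called of 10, with 84.9 and 108 scaled CPM in the deletion, 274 and 258 in rapamycin-treated WT and 256 and 203 in untreated WT, a difference of -1.46 (SE 0.17, limma adjusted p = 2.75e-04). Without deletion replicate 2 there were 4 histone rows lower, and without deletion replicate 1 there were 2 higher and 1 lower. Cyclins and G1 regulators had 6 higher and 4 lower of 16, with 1 lower without either rapamycin library and 2 lower without deletion replicate 1 or either untreated WT library. The G1 cyclin CLN2 had 58.5 and 57.7 scaled CPM in the deletion, 36.3 and 34.6 in rapamycin-treated WT and 50.6 and 47.1 in untreated WT, a difference of 0.70 (SE 0.13, limma adjusted p = 0.00227).

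CUT and SUT rows took 5.79% and 5.85% of the reads in listed rows in the deletion, 6.32% and 6.06% in rapamycin-treated WT and 7.62% and 7.86% in untreated WT.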
